A study of Triticum aestivum with 15 samples.

Results

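The leaf transcriptomes of 2 bread wheats that both carry their own wheat cytoplasm, the accession T20 and the cultivar Chris, were compared on 6 of the 15 arrays of the study, 3 of T20 and 3 of Chris, taken by their labels. The study was made to ask how an alien cytoplasm alters nuclear gene expression, and T20 and Chris served in it as the euplasmic controls, the first of TH237, which has the cytoplasm of Hordeum chilense in the T20 nucleus, and the second of T183 and T195, which have those of Aegilops uniaristata and Aegilops tauschii in the Chris nucleus. Plants of all lines were grown in pots of garden soil under a high light intensity, and the second fully expanded leaf was taken at 14 days. The methods call each of the 3 arrays of a line a biological replicate of bulked plants from a pot, so that a p-value here measures only the spread between these arrays, and 3 arrays a line limit its precision. T20 and Chris differ in the whole nuclear genome and also in the origin of their cytoplasm within wheat, so that the share of each in a difference cannot be told apart.

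Bread wheat is an allohexaploid, with genes present as similar copies in the A, B and D genomes, and the copies differ between cultivars in sequence, in number and in expression. An Affymetrix probe set reads a transcript by a set of short probes, so that a cultivar whose allele carries a mismatch, or which lacks the copy, gives less signal, and a lower transcript level and a poorer match cannot be told apart on the array. In leaves under high light, the photosynthetic genes of the nucleus are adjusted to the state of the plastid: antenna proteins bind the chlorophyll that feeds photosystem II, early light-inducible proteins appear as excess energy has to be dissipated, and enzymes such as ascorbate peroxidase remove the hydrogen peroxide that is formed. Much of what follows concerns these genes, together with those of jasmonate formation, cold hardening and surface lipids.

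The deposited values are linear signals of 61290 probe sets, of which 111 were controls. The 28342 probe sets that lay above the 55th percentile of the array (a signal of 96.6 to 113) on at least 3 of the 6 arrays were compared, and 32837 were left out. A difference is T20 minus Chris of log2(signal + 16), given with its standard error, which understates the change of dim probe sets. "Rose" and "fell" are used of T20 relative to Chris where the Benjamini-Hochberg adjusted p of limma was at most 0.05 and the change at least 2-fold. By this rule 2170 probe sets (7.66%) differed, 925 of them higher in T20 (3.26%) and 1245 lower (4.39%). The median difference over the probe sets tested was 0.00871. Among the 925 risen probe sets the median change was 1.63, with 345 at 4-fold or more and 68 at 16-fold or more, and among the 1245 fallen ones it was -1.48, with 369 and 78. The arrays of T20 all lay above those of Chris at 908 of the 925 and all below at 1235 of the 1245. Over the whole table the arrays of T20 lay wholly above at 16.7% of the probe sets tested and wholly below at 18.2%.

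**Figure D1:**
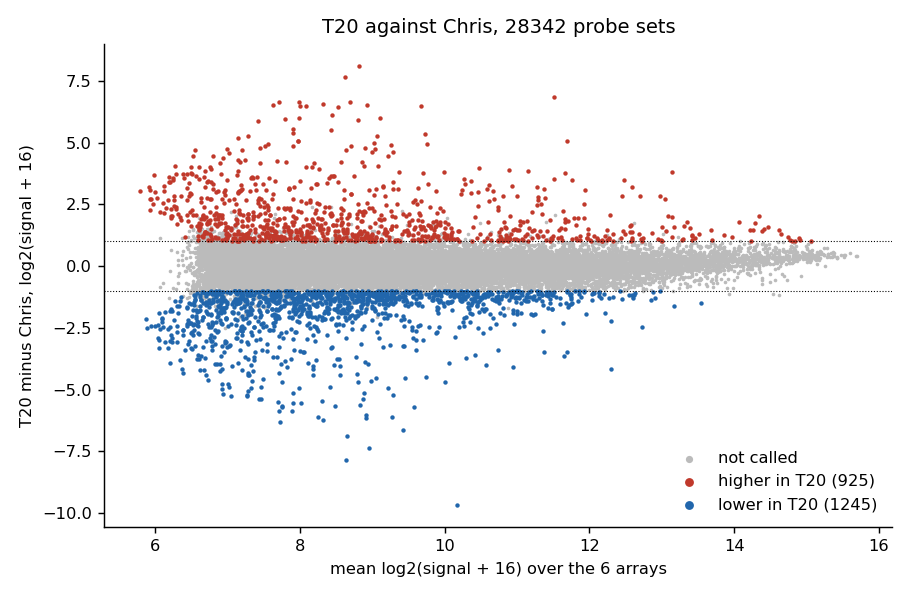
Difference between T20 and Chris, T20 minus Chris of log2(signal + 16), against the mean level of each probe set tested; the 925 probe sets called higher in T20, the 1245 called lower and those not called are drawn in separate colours. Called differences in both directions are found over most of the range of levels, and the cloud is centred near 0 (median 0.00871).

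Over the probe sets tested, log2 values of arrays of one line correlated at 0.967 to 0.973 in T20 and at 0.961 to 0.968 in Chris, against 0.89 to 0.915 between T20 and Chris. Each of the 15 arrays resembled an array of its own nuclear background most. The leaf origin was checked with photosynthesis and storage protein genes. PRK, the phosphoribulokinase of the Calvin cycle, was bright in both lines, with 40530, 49210 and 46910 in T20, against 36930, 29830 and 38460 in Chris. Of 13 endosperm storage protein probe sets at most 1 lay above the 55th percentile on any of the 6 arrays. The antenna was a less even marker. Of its 11 probe sets 10, 11 and 11 lay above that percentile on T20 replicates 1 to 3, but 5, 5 and 11 on Chris replicates 1 to 3. Single arrays stood apart in the light genes. Chris replicate 3 lay above both other Chris arrays in 10 of 11 antenna probe sets, by a median of 1.75 on the log2 scale, and in 4 of 4 ascorbate peroxidase 4 probe sets, by 3.62, against 10018 of the 28342 probe sets tested, with a median of 0.02 over all of them. T20 replicate 1 lay below both other T20 arrays in 10 of 11 antenna, 4 of 4 ascorbate peroxidase 4 and 15 of 16 plastid-encoded probe sets, against 10159 of 28342. What sets the arrays apart was not tested.

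The probe sets that differed most carry no name in the tables used here. The largest rise was 8.10 ± 0.29, at a probe set with signals of 8227, 7766 and 6482 in T20, against 14.0, 1.24 and 22.9 in Chris. The largest fall was -9.67 ± 0.33, at a probe set with 41.5, 15.5 and 20.1 in T20, against 32950, 33580 and 31600 in Chris. In both cases one line was among the brightest on the array and the other near the lower end of the scale. Of the 2170 differing probe sets, 156 were listed in the supplement of the study. A gene name, from the supplement or the platform annotation, was carried by 120 of the 2170. The supplement lists what changed in a comparison with T20 or with Chris as the control, so its entries are not independent evidence on these same arrays. Of its 505 tested probe sets 17.6% rose and 13.3% fell, beside 3.26% and 4.39% of all. The gene lists below, other than those by platform symbol, were taken from it, and their counts are read beside these shares.

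Among the named genes the largest rise was that of CCL (CCR-LIKE), known in Arabidopsis for transcripts whose stability is under circadian control. Its S1_s_at probe set had signals of 954, 2078 and 3986 in T20, against 3.70, 46.2 and 10.2 in Chris, a rise of 5.98 ± 0.50 (adjusted p 1.77e-06). Its S1_at probe set gave 1241, 1636 and 3822 in T20, against 80.5, 52.4 and 179 in Chris, and rose by 4.20 ± 0.42 (adjusted p 9.58e-06). No Chris array reached any T20 array on either probe set. A ribonuclease followed, with 1422, 1010 and 1444 in T20, against 32.8, 68.1 and 5.65 in Chris (4.86 ± 0.44, adjusted p 4.02e-06). A phosphorylase family protein rose by 4.07 ± 0.83 and a dormancy/auxin associated protein by 3.78 ± 0.51. A germin-like protein, of a family of cell wall and apoplast proteins, had 211, 343 and 424 in T20, against 4.07, 27.8 and 11.4 in Chris, a rise of 3.51 ± 0.53. The remaining members of the 10 largest named rises were a putative lipoxygenase similar to LOX3 (3.63 ± 0.66), an antenna probe set (3.58 ± 0.47), a class 3 lipase (3.51 ± 0.64) and LOX2 (3.48 ± 0.67). All 10 were within the 108 largest rises of the whole table.

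KIWI, annotated as a DNA-binding transcription coactivator, was among the largest named falls, with T20 signals below the 55th percentile on all arrays, so that its size is only bounded, and had 35.8, 6.80 and 7.30 in T20, against 1990, 1536 and 1191 in Chris (-5.69 ± 0.31, adjusted p 3.13e-08). A splicing factor with a PWI domain, a fold found in proteins of pre-mRNA processing, had 75.01, 73.8 and 114 in T20, against 4589, 3809 and 3131 in Chris (-5.22 ± 0.50, adjusted p 6.82e-06). CYP76C2, a cytochrome P450, had 30.7, 64.5 and 50.3 in T20, against 2415, 1817 and 1428 in Chris (-4.89 ± 0.34, adjusted p 2.98e-07). All 3 genes were far dimmer on every T20 array than on any Chris array. A molybdenum cofactor sulfurase family protein, of the kind that activates molybdenum enzymes, fell by 3.38 on the log2 scale. A powdery mildew resistance protein fell by 3.33, an aspartyl protease by 3.22 and a transcriptional regulator by 2.65. 6-FEH, a fructan 6-exohydrolase, which trims the fructans that temperate cereals store, fell on both of its tested probe sets. Its A1_a_at probe set had 204, 251 and 148 in T20, against 1753, 1106 and 1184 in Chris (-2.65 ± 0.24, adjusted p 4.62e-06), and the A1_x_at probe set fell by 2.11. A nodulin MtN3 family protein, related to sugar exporters, fell by 2.53, and LOX3 by 2.47. The 10 largest named falls were within the 241 largest falls of the whole table.

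**Figure D2:**
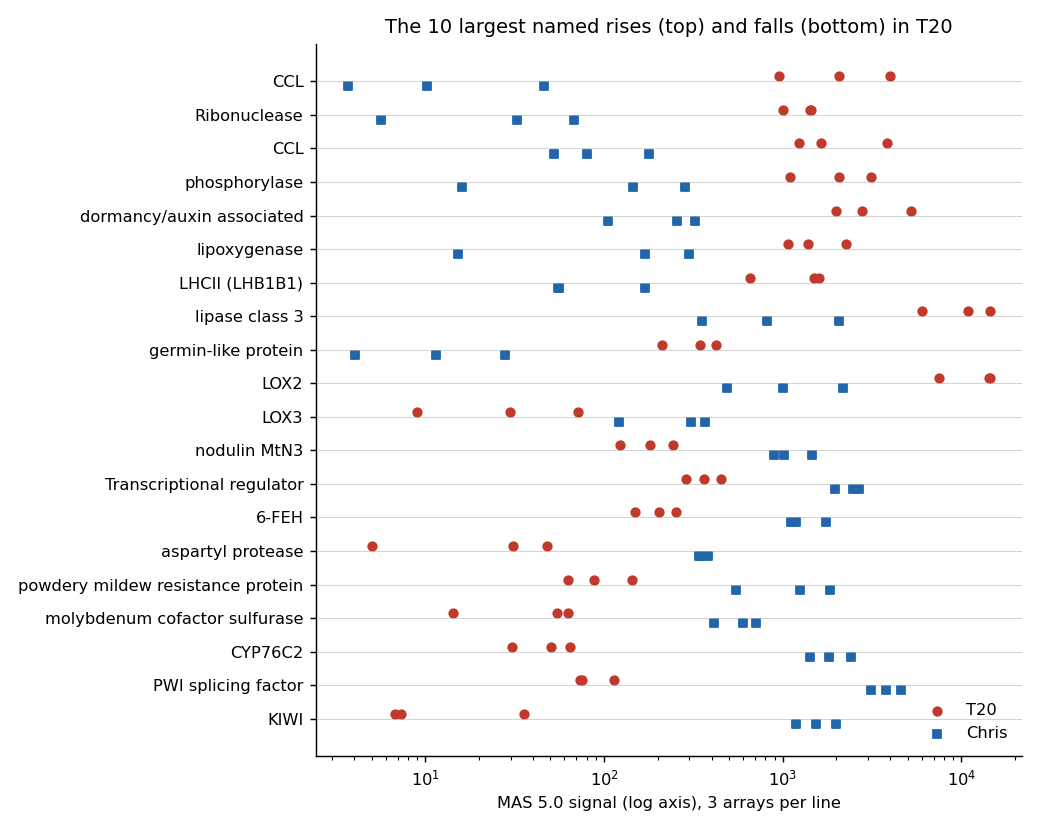
Signals of the 10 largest named rises and the 10 largest named falls on each T20 array and each Chris array, on a log axis; each point is 1 array. Genes were taken only where the arrays of the lines did not overlap, and are ordered by the difference of log2(signal + 16), with CCL at the top (5.98) and KIWI at the bottom (-5.69).

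The antenna of photosystem II (LHCII) was brighter in T20. The study tabulated 11 probe sets of LHB1B1, which encodes a chlorophyll a/b-binding protein of this antenna, and all 11 were tested. Of these 8 rose and none fell, against 3.26% higher and 4.39% lower over all probe sets and 17.6% and 13.3% over the supplement. Their median difference was 2.50, against 0.00871 and 0.12. The brightest of them, an S1_x_at probe set, had 14460, 19330 and 22630 in T20, against 941, 1250 and 6925 in Chris, and rose by 3.19 ± 0.59 (adjusted p 0.00211). The S1_x_at probe set with the largest called rise among the genes named above had 653, 1493 and 1588 in T20, against 55.4, 56.0 and 169 in Chris (3.58 ± 0.47, adjusted p 0.000135). Chris replicate 3 was the highest of the Chris arrays on both and still below every T20 array. This was not so on every member. An S1_at probe set had 392.2, 875 and 1618 in T20, against 4.07, 10.5 and 873 in Chris (3.43 ± 1.0, adjusted p 0.0375), where Chris replicate 3 exceeded T20 replicate 1 and all but reached T20 replicate 2. The summed signal of the 11 probe sets was 29910 to 45740 in T20 and 6069 to 16500 in Chris.

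The 3 LHCII probe sets that were not called had differences of 0.05 ± 0.43, 0.74 ± 0.46 and 2.38 ± 0.77. The first of these was bright in both lines, with 7590, 2418 and 3454 in T20, against 3899, 4910 and 2974 in Chris, so that the antenna transcripts did not all differ alike. Without Chris replicate 3 the number of risen LHCII probe sets was 9 and their median difference 3.56, and without T20 replicate 1 it was also 9. It was 5 without T20 replicate 2, T20 replicate 3, Chris replicate 1 or Chris replicate 2. PsbP, a nuclear-encoded subunit of the oxygen-evolving complex, rose on its S1_x_at probe set, with 17120, 21640 and 27190 in T20, against 6520, 5414 and 13830 in Chris (1.45 ± 0.40, adjusted p 0.024), a call lost without T20 replicate 2 or 3 or Chris replicate 1 or 2. Its other tested probe set differed by 0.83 ± 0.23 and PsbO, another subunit of that complex, by 0.96 ± 0.25, both short of the 2-fold limit.

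APX4, annotated as an ascorbate peroxidase, an enzyme class that removes hydrogen peroxide with ascorbate, had 4 tested probe sets of 5, and all 4 rose, with a median of 2.72. Over all probe sets 3.26% rose, and over the supplement 17.6%. The S1_at probe set with the largest change had 3163, 5274 and 6012 in T20, against 184, 228 and 3777 in Chris, a rise of 3.03 ± 0.84 (adjusted p 0.0255). The S1_x_at probe set had 2310, 3447 and 4464 in T20, against 156, 174 and 2478 in Chris (2.93 ± 0.73, adjusted p 0.0148), and the remaining probe sets rose by 2.51 and 2.01. Chris replicate 3 was thus on the level of T20 replicate 1, and the other Chris arrays were far below. Without Chris replicate 3 all 4 were called and the median was 3.93. Without T20 replicate 1 it was 3 that were called and without T20 replicate 2 it was 1, while none was called without T20 replicate 3, Chris replicate 1 or Chris replicate 2. The call on APX4 thus depends on which arrays are kept.

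Early light-inducible proteins, which bind pigment as plastids develop or meet excess light, went the other way from the antenna. All 3 tested probe sets fell, against 4.39% of all probe sets and 13.3% of the supplement. One ELIP1 probe set, of ending S1_at, had 762, 727 and 1070 in T20, against 4828, 1713 and 1512 in Chris (-1.45 ± 0.38, adjusted p 0.0198). The ELIP1 probe set of ending A1_at had 239, 229 and 211 in T20, against 885, 542 and 592 in Chris (-1.48 ± 0.37, adjusted p 0.0139). The third, annotated as an early light-inducible protein of rice, had 1026, 959.5 and 1606 in T20, against 3495, 2114 and 3717 in Chris (-1.36 ± 0.33, adjusted p 0.0131). The arrays of the lines did not overlap on any of them, where T20 lay wholly below at 18.2% of all probe sets tested. None of the 3 was called without Chris replicate 1, 1 was called without T20 replicate 2 and 2 without T20 replicate 1.

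Of the light-signalling genes tabulated by the study, both CCL probe sets and a B-box zinc finger were tested, and all 3 rose. The shares risen were 3.26% of all probe sets and 17.6% of the supplement. The B-box protein, of a family of transcription factors of photomorphogenesis, had 183.2, 248 and 237 in T20, against 45.3, 50.8 and 43.1 in Chris, a rise of 1.93 ± 0.22 (adjusted p 3.09e-05). The 3 T20 arrays and the 3 Chris arrays each lay close together, and Chris replicate 3 was no exception here.

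**Figure D3:**
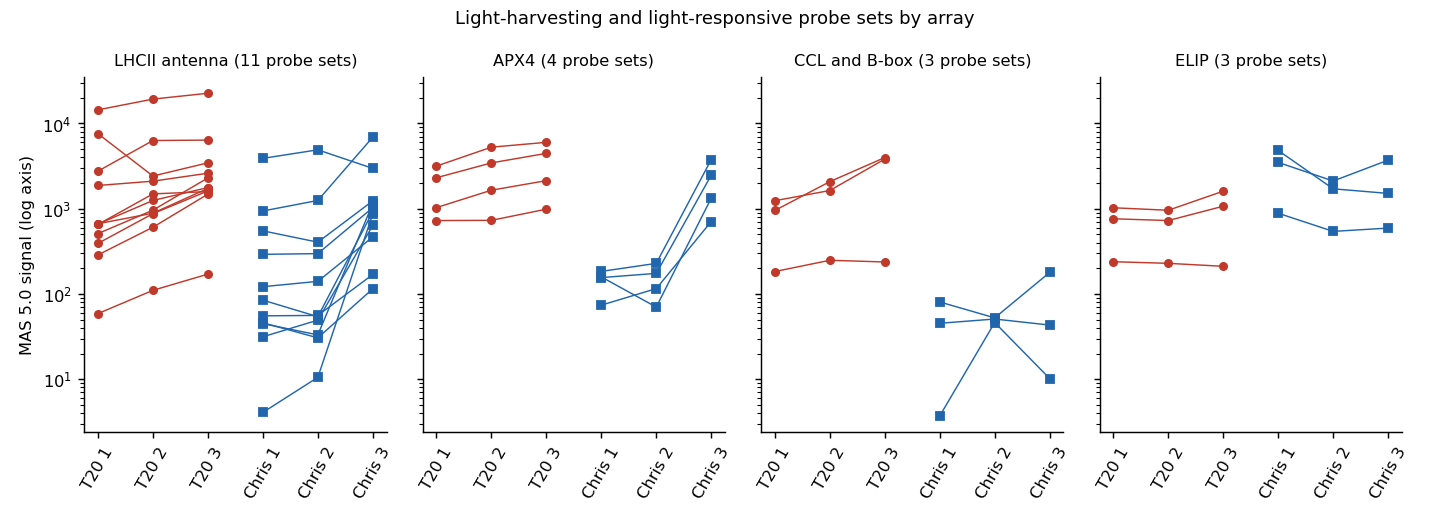
Signals of the tested probe sets of LHCII (11), APX4 (4), CCL and the B-box protein (3) and early light-inducible proteins (3) on T20 replicates 1 to 3 and Chris replicates 1 to 3, on a log axis; each line joins the values of 1 probe set and the arrays have no order in time. Chris replicate 3 is raised in the LHCII and APX4 panels and on CCL S1_at, but not on CCL S1_s_at or the B-box protein, and the early light-inducible proteins are lower on all T20 arrays.

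The genes of tetrapyrrole synthesis and of signals from the plastid were likewise higher on Chris replicate 3. FLU, which in Arabidopsis holds back the formation of protochlorophyllide in the dark, fell on 1 of 3 tested probe sets. This A1_x_at probe set had 254, 220 and 261 in T20, against 690, 374 and 762 in Chris (-1.20 ± 0.30, adjusted p 0.0138), a call lost without T20 replicate 2, Chris replicate 1 or Chris replicate 3, and the FLU probe sets not called differed by -0.75 and -0.48. HEMA1, which encodes a glutamyl-tRNA reductase and opens the pathway, had 2910, 3653 and 4212 in T20, against 1321, 1626 and 3690 in Chris, a difference of 0.83 ± 0.30 (adjusted p 0.0845). All 6 tested members were higher on Chris replicate 3 than on both other Chris arrays, by a median of 0.98. Without this array 2 members were called higher and none lower.

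Of 16 tested probe sets of genes encoded in the plastid itself, 1 rose and none fell. The shares were 3.26% and 4.39% of all probe sets and 17.6% and 13.3% of the supplement. The median difference of the 16 was 0.03. Without T20 replicate 1 the median was 0.19, and without T20 replicate 2 it was -0.23 and 2 probe sets fell. Of 17 probe sets with a plastid symbol in the platform annotation, which include nuclear genes such as PsbP, 1 rose and none fell (median 0.32), while 3 rose without T20 replicate 1 or Chris replicate 3 and none without T20 replicate 2, T20 replicate 3 or Chris replicate 1. The risen one of the 16 was annotated as the plastid maturase, a splicing protein of organelle introns. It had 4488, 5414 and 6509 in T20, against 1089, 1157 and 1491 in Chris (2.12 ± 0.30, adjusted p 0.00023). The others of the 16 spanned -1.06 to 0.42. Among them were psbE, for cytochrome b559 (0.30 ± 0.29), psbM, for a small photosystem II subunit (0.42 ± 0.32), the photosystem II protein D1 (-0.18 ± 0.34) and the alpha chain of the plastid RNA polymerase (-1.06 ± 0.37). The bright S1_x_at probe set of rbcL, the large subunit of Rubisco, had 53380, 69560 and 60760 in T20, against 50580, 37970 and 48640 in Chris (0.42 ± 0.16, adjusted p 0.102). T20 replicate 1 was the lowest T20 array for 15 of the 16 probe sets.

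The genes of mitochondrial electron transport had lower rather than higher values in T20. Of 7 tested probe sets of the electron transport chain 2 fell and none rose, with a median of -0.91. The shares fallen and risen were 4.39% and 3.26% of all probe sets and 13.3% and 17.6% of the supplement, the source of the list. Without T20 replicate 1, 2 of the 7 fell and 1 rose, and without Chris replicate 1 only 1 of the 7 fell. Chain 3 of the NADH-ubiquinone oxidoreductase, a subunit of complex I, had 178, 274 and 219 in T20, against 1129, 770 and 609 in Chris (-1.80 ± 0.27, adjusted p 0.00036). NADH dehydrogenase subunit 2 had 50.7, 58.6 and 65.5 in T20, against 115, 126 and 130 in Chris, and its difference of -0.91 ± 0.16 passed the adjusted p (0.00148) but not the fold limit. A cytochrome c biogenesis protein differed by 0.81 ± 0.25. By the compartments that the supplement assigns, 2 of 20 tested mitochondrial probe sets rose and 5 fell (median -0.73), beside 17 risen and 8 fallen of 58 for the chloroplast (median 0.35). Over the whole supplement 17.6% rose and 13.3% fell. The chloroplast count of risen probe sets was 11 without T20 replicate 2, 9 without T20 replicate 3, 9 without Chris replicate 1 and 10 without Chris replicate 2. Without Chris replicate 1, 4 chloroplast and 3 mitochondrial probe sets fell. The likely mitochondrial ribosomal protein MRPL17p was among the risen, with 4882, 8917 and 9723 in T20, against 499, 712 and 1448 in Chris (3.20 ± 0.53, adjusted p 0.000884). So was protoheme IX farnesyltransferase, which makes heme for cytochrome oxidase, with 1099, 910.5 and 1023 in T20, against 261, 138 and 243 in Chris (2.20 ± 0.22, adjusted p 9.63e-06). An open reading frame annotated as ORF45a fell by 1.94, a call lost without Chris replicate 1.

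Lipoxygenases oxygenate polyunsaturated fatty acids at the entry to jasmonate. LOX2, the chloroplast form, rose on 3 probe sets. Its A1_x_at probe set had 7513, 14520 and 14290 in T20, against 491, 1004 and 2165 in Chris (3.48 ± 0.67, adjusted p 0.00295), and the others rose by 3.08 and 2.97. The putative lipoxygenase similar to LOX3 had 1064, 1386 and 2255 in T20, against 15.2, 170 and 298 in Chris (3.63 ± 0.66, adjusted p 0.00186). The probe set annotated as LOX3 itself was dim and fell, with 29.9, 71.6 and 8.997 in T20, against 122, 307 and 369 in Chris (-2.47 ± 0.79, adjusted p 0.0483). It was not called without T20 replicate 1, T20 replicate 3, Chris replicate 2 or Chris replicate 3. The lipoxygenases thus did not share a direction. The class 3 lipase, whose family releases fatty acids from lipids, had 6048, 10830 and 14490 in T20, against 355, 822 and 2057 in Chris.

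Over the list of systemic resistance and jasmonate genes, 5 of 14 tested probe sets rose and 3 fell (median 0.45). Over the supplement 17.6% rose and 13.3% fell, and over all probe sets 3.26% and 4.39%. The fallen members of the list besides LOX3 were DIR1 and WRKY45. DIR1, a lipid transfer protein needed for systemic acquired resistance in Arabidopsis, had 144, 128 and 146 in T20, against 740, 837 and 471 in Chris (-2.13 ± 0.26, adjusted p 6.86e-05). WRKY45, a transcription factor of the salicylic acid response in rice, which was named after its values were seen, had 1503, 1495 and 1232 in T20, against 7860, 7775 and 5823 in Chris (-2.32 ± 0.32, adjusted p 0.000223). FMO1 is a monooxygenase that the study annotates as acting in pathogen resistance independently of salicylic acid. It had 738, 1176 and 1440 in T20, against 382, 658 and 538 in Chris (1.05 ± 0.26, adjusted p 0.0154). FMO1 was not called without T20 replicate 2, T20 replicate 3 or Chris replicate 1, and its other tested probe set differed by 0.53 ± 0.41. Of 11 tested resistance and PR proteins 2 rose and 2 fell, close to the 17.6% and 13.3% of the supplement. An NBS-LRR protein, of the class of intracellular receptors of pathogen effectors, had 377, 376 and 218 in T20, against 16.6, 96.1 and 132 in Chris (2.02 ± 0.45, adjusted p 0.00806). A dirigent protein, of a family linked to lignan formation, had 319, 218 and 291 in T20, against 61.8, 78.8 and 88.4 in Chris (1.65 ± 0.38, adjusted p 0.00954). The powdery mildew resistance protein had 87.5, 144 and 62.9 in T20, against 1250, 1834 and 548 in Chris, and a probe set annotated with salicylic acid synthesis fell by 1.10, a call that only the removal of T20 replicate 3 left in place. Of 7 tested cell death regulators 2 rose and 1 fell, beside 17.6% and 13.3% of the supplement. A metacaspase, a plant protease related to caspases, rose, with 10880, 9146 and 12580 in T20, against 2839, 6505 and 2167 in Chris (1.65 ± 0.34, adjusted p 0.00494). Another metacaspase probe set differed by 0.91 ± 0.23 (adjusted p 0.0154), short of the 2-fold limit. VEP1 rose by 1.45 ± 0.26, and the sugar transporter MSS1 (STP13), which the study placed in the same list, fell by 1.25, a call lost without T20 replicate 2 (-0.94). LOL1, a relative of the Arabidopsis cell death regulator LSD1, differed by 0.20 ± 0.41 and 0.40 ± 0.27 on its probe sets.

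Fatty acyl-CoA reductases make the alcohols of waxes and of the pollen wall. Against 17.6% risen and 13.3% fallen in the supplement, they rose on 4 of 8 probe sets and fell on none (median 1.16). The study reported these reductases as lower in TH237 than on these same T20 arrays, so high T20 values entered their choice. The A1_at probe set had 1140, 1281 and 1096 in T20, against 41.2, 55.4 and 344 in Chris (3.38 ± 0.67, adjusted p 0.00342). The S1_at probe set of an acyl-CoA reductase annotated as a male-sterility protein had 1370, 1044 and 996 in T20, against 79.4, 90.4 and 331 in Chris (2.91 ± 0.60, adjusted p 0.0047). Others rose by 2.10 and 1.34, the last of these called with Chris replicate 1 removed but with no other array removed, while MS2, the reductase of the pollen wall in Arabidopsis, differed by -0.50 ± 0.38 at 148, 85.6 and 56.1 in T20, against 115, 156 and 135 in Chris. Of 9 tested wax, cutin and sterol genes none was called in either direction by limma, nor by the methods' t-test. In limma 3 of the 9 had an unadjusted p under 0.05, as had 8182 of the 28342 probe sets tested. The largest difference was that of the sterol methyl oxidase SMO1-2 (1.13 ± 0.51). CUT1, a condensing enzyme of wax synthesis, differed by 0.14 ± 0.16. Of 13 genes of secondary metabolism 1 rose and none fell, beside 17.6% and 13.3% of the supplement. The risen one was a terpene synthase described as forming sesquiterpenes, with 7321, 5754 and 5045 in T20, against 283, 530 and 1574 in Chris (3.23 ± 0.57, adjusted p 0.00152). Another terpene synthase had 6849, 9617 and 7222 in T20, against 3424, 9082 and 11820 in Chris, and its arrays overlapped (0.12 ± 0.45).

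Genes of carbon and nitrogen metabolism changed in both directions. SUS4, a sucrose synthase, which cleaves sucrose in sink tissues, had 134, 123 and 126 in T20, against 779, 599 and 500.2 in Chris on its S1_at probe set (-2.14 ± 0.23, adjusted p 1.81e-05). Its S1_s_at probe set, with 433, 535 and 561 in T20, against 621, 783 and 605 in Chris, was not called (-0.38 ± 0.20). SUS4 was the 1 fallen of 8 tested sucrose and glycolysis genes, none of which rose, beside 13.3% fallen and 17.6% risen in the supplement. Of 17 amino acid genes 1 rose and 4 fell, against 3.26% and 4.39% of all probe sets and 17.6% and 13.3% of the supplement from which the list was taken. The risen one was an L-asparaginase, which releases ammonium from asparagine, with 7248, 9060 and 7333 in T20, against 1211, 591 and 943 in Chris (3.14 ± 0.28, adjusted p 3.99e-06), while another asparaginase probe set differed by 0.84 ± 0.25. Sarcosine oxidase fell on both probe sets, the A1_at probe set having 184, 170 and 154 in T20, against 974, 973 and 613 in Chris (-2.20 ± 0.24, adjusted p 2.61e-05). The branched-chain aminotransferase BCAT-5 had 1078, 851 and 749 in T20, against 5696, 2817 and 2322 in Chris (-1.90 ± 0.38, adjusted p 0.00337). POP2, a transaminase of 4-aminobutyrate that was named after its values were seen, fell by 1.56 on 1 of 3 probe sets, the others differing by -0.46 and -0.69. Of 22 transport genes 1 rose and 4 fell, against the same 17.6% and 13.3% of the supplement. CLC-A, which loads nitrate into the vacuole in Arabidopsis, had 252, 262 and 463 in T20, against 60.8, 120 and 159 in Chris (1.43 ± 0.31, adjusted p 0.00628). The fallen ones included a proton-dependent oligopeptide transporter (-2.10 ± 0.28), the oligopeptide transporter OPT4 (-1.78 ± 0.23), MSS1 and the phosphate exporter PHO1 (-1.08 ± 0.22), the last of these named after its values were seen. PHO1 was under 2-fold without T20 replicate 3 or Chris replicate 2, and an EXS family protein annotated as similar to PHO1 differed by 0.34 ± 0.22.

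Of 7 tested cold and dehydration genes 5 rose and none fell, against 17.6% and 13.3% of the supplement, with a median of 1.72. LTI30, a dehydrin, a protein that protects membranes in dry or frozen cells, had 267, 234 and 314 in T20, against 1.94, 17.3 and 19.5 in Chris (3.37 ± 0.34, adjusted p 1.13e-05). A hydrophobic low temperature and salt responsive protein had 446, 477 and 509 in T20, against 89.1, 28.3 and 25.0 in Chris (3.10 ± 0.33, adjusted p 1.98e-05). BLT14.1, a barley low temperature gene, had 320, 543 and 464 in T20, against 76.2, 33.0 and 56.1 in Chris (2.70 ± 0.30, adjusted p 2.76e-05). An ice recrystallisation inhibition protein, of the antifreeze proteins of grasses, had 160, 166 and 202 in T20, against 25.3, 47.0 and 59.0 in Chris (1.72 ± 0.29, adjusted p 0.000967). These 4 genes were below the 55th percentile on all Chris arrays and above it on all T20 arrays. The fifth risen member, a low temperature induced protein, was named after its values were seen and rose by 1.06, which was not called without T20 replicate 2 or 3 or without Chris replicate 1 or 2.

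Heat shock proteins rose on 3 of 7 tested probe sets and fell on none, against 17.6% and 13.3% of the supplement. HSP101, the disaggregating chaperone of acquired thermotolerance, had 220, 287 and 197 in T20, against 14.8, 17.7 and 15.4 in Chris (2.95 ± 0.34, adjusted p 4.41e-05). A DNAJ protein, a co-chaperone of HSP70, had 252, 240 and 824 in T20, against 73.3, 43.3 and 26.1 in Chris (2.67 ± 0.54, adjusted p 0.00391), and DNAJ J11 rose by 1.04, though not without T20 replicate 3 or Chris replicate 1. A small heat shock protein had 169, 190 and 397 in T20, against 556, 249 and 2375 in Chris and was not called (-1.51 ± 0.58). Of 14 detoxification enzymes 2 rose and 2 fell, against 17.6% and 13.3% of the supplement. The risen ones were both probe sets of peroxidase 55. Its A1_at probe set had 712, 912 and 912 in T20, against 189, 142 and 127 in Chris (2.36 ± 0.29, adjusted p 7.01e-05). A UDP-glucosyl transferase had 1657, 1096 and 1904 in T20, against 5220, 5372 and 4306 in Chris (-1.70 ± 0.26, adjusted p 0.000469), and CYP76C2 was the other fallen one. GSTZ1, a glutathione transferase of tyrosine breakdown, rose on 1 of 3 probe sets, with 787, 781 and 996 in T20, against 249.9, 251 and 324 in Chris (1.58 ± 0.16, adjusted p 1.26e-05), while the others differed by 0.02 and 0.07 at signals near those of Chris.

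DNA methyltransferases of the DRM class place methyl groups on cytosines under the direction of small RNAs. DRM2 had 194, 188 and 166 in T20, against 27.4, 36.9 and 48.5 in Chris (1.91 ± 0.24, adjusted p 8.7e-05), and DRM1 differed by 0.80 ± 0.24. The list of PWI splicing factors held 5 tested probe sets, 1 of them that of SR45, another splicing regulator, which differed by 0.14 ± 0.32. Of the 5 probe sets 1 rose, with 5508, 6323 and 10840 in T20, against 3082, 3838 and 3145 in Chris (1.11 ± 0.25, adjusted p 0.00863, and 0.82 without T20 replicate 3), and 1 fell, the one at -5.22 above. None of the 3 flowering probe sets was called by limma or by the methods' t-test. In limma 2 of the 3 had an unadjusted p under 0.05, as had 8182 of the 28342 probe sets tested.

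**Figure D4:**
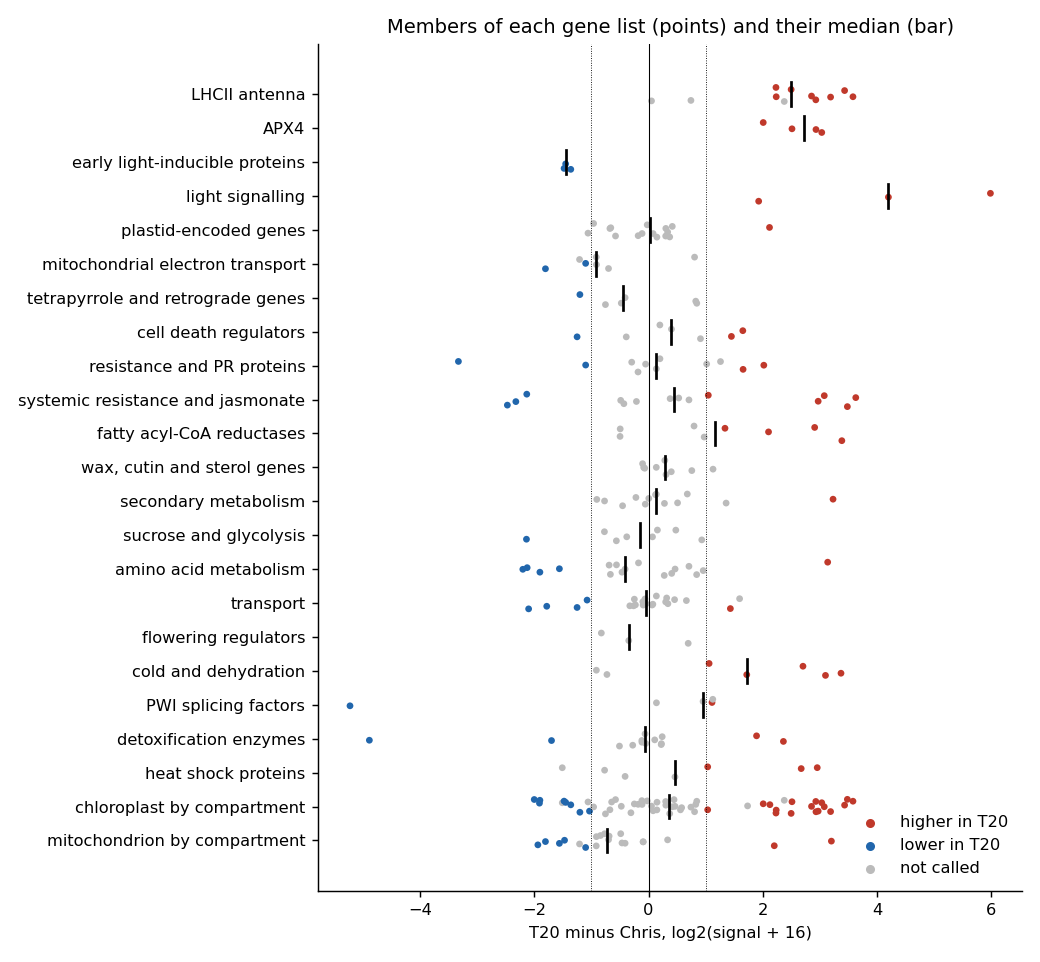
Differences between T20 and Chris, T20 minus Chris of log2(signal + 16), of the tested probe sets of each gene list; each point is 1 probe set, called and not called ones are drawn apart, and the bar marks the list median. LHCII (median 2.50) and APX4 (median 2.72) lie right of 0, the early light-inducible proteins left of it and the plastid-encoded genes around it.

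All the probe sets of the supplement that could be used, 505 tested, held 89 risen (17.6%) and 67 fallen (13.3%) ones, with a median difference of 0.12. These shares stand above those of all probe sets, and 484 of the 505 had been chosen by the study on a comparison with the T20 arrays.

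The alloplasmic lines offered a second set of arrays of the same nuclear backgrounds, none of them shared with the comparison of T20 and Chris. The methods give fewer backcrosses for TH237 than for T183 and T195, and how fully its nucleus matches that of T20 was not tested. TH237 was set against the mean of T183 and T195, which differs from the comparison of T20 and Chris in that H. chilense and Aegilops cytoplasms take part. In this comparison 4373 probe sets differed (15.4%), 2253 higher in TH237 (7.95%) and 2120 lower (7.48%). Of the 925 probe sets that rose in T20, 753 (81.4%) were also called higher in TH237, 3 were called lower and 169 were not called. Of the 1245 that fell in T20, 893 (71.7%) were also called lower, 7 were called higher and 345 were not called. The 1646 probe sets called the same way in both were 75.9% of the calls between T20 and Chris and 37.6% of those between the alloplasmic lines. Over the 28342 probe sets the r of both differences was 0.773, given as a description across probe sets, which are not independent replicates.

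The most extreme probe sets were among those that recurred. The largest unnamed rise was 8.10 between T20 and Chris and 8.13 between TH237 and the Chris-background lines, and the largest fall was -9.67 and -9.83. CCL rose by 5.98 and by 8.52 on its S1_s_at probe set, FAR A1_at by 3.38 and by 3.28, the plastid maturase by 2.12 and by 2.05 and L-asparaginase by 3.14 and by 2.22. CYP76C2 differed by -4.89 and -4.10, WRKY45 by -2.32 and -2.91 and 6-FEH A1_a_at by -2.65 and -3.17. On these probe sets the nuclear backgrounds differed in a like direction under either kind of cytoplasm. This did not hold for the 8 fatty acyl-CoA reductase probe sets together, with a median of 1.16 between T20 and Chris and -1.01 between the alloplasmic lines. In the alloplasmic comparison 3 of the 8 were called higher and 4 lower.

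The difference between both comparisons, the euplasmic minus the alloplasmic one, was called at 806 probe sets (2.84%), 266 of them positive (0.939%) and 540 negative (1.91%). It was called at 101 of the 925 risen probe sets (10.9%) and at 87 of the 1245 fallen ones (7.0%), but the count of 806 was 413 without T20 replicate 1, 446 without TH237 replicate 2 and 479 without Chris replicate 3, so that it rests in part on single arrays. The PWI splicing factor that fell by 5.22 had signals of 51.3, 149.8 and 26.5 in TH237, against 39.2, 12.5 and 10.7 in T183 and 9.24, 69.15 and 14.3 in T195. Of the 5 lines Chris was thus the bright one, and the difference of -6.28 ± 0.66 was called (adjusted p 0.000399). DIR1 changed direction, since it was lower in T20 than in Chris by 2.13 and higher in TH237 than in T183 and T195 by 2.61, and its difference of -4.74 ± 0.34 was called (adjusted p 1.75e-05). The B-box protein did the reverse, with 1.93 and -1.05 and a called difference of 2.98 ± 0.29 (adjusted p 0.000189), and so did the acyl-CoA reductase of ending A1_s_at, with 1.34 and -1.70 and a difference of 3.04. LHCII rose on 10 of 11 probe sets in the alloplasmic comparison, with a median of 6.46 against 2.50 in the euplasmic one, and the difference was called at 9 of the 11, each time negative. For APX4 it was called on 1 of 4 probe sets, at -3.94. Among 17 amino acid genes 5 were higher and 7 lower in TH237, and of 8 sucrose and glycolysis genes 7 were higher and none lower, where T20 and Chris had given 1 and 4, and none and 1.

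**Figure D5:**
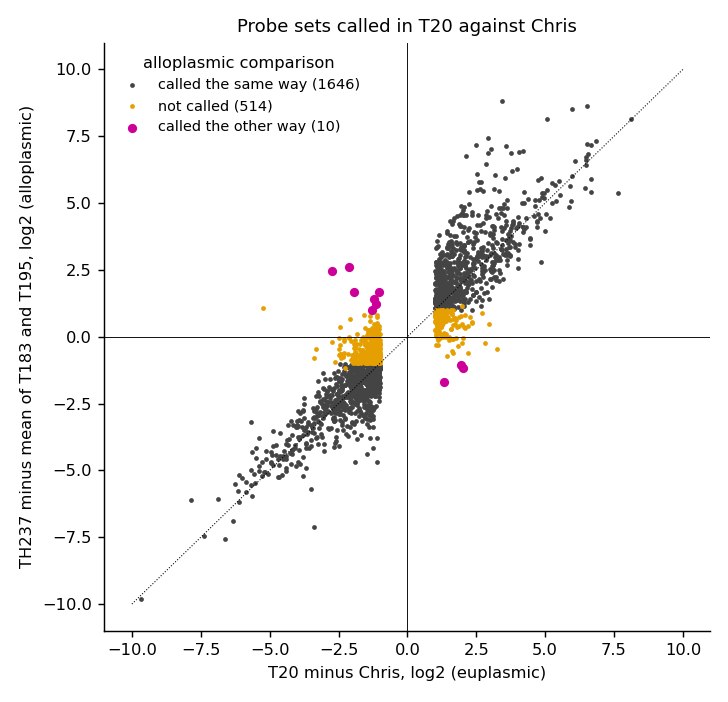
Difference between T20 and Chris (horizontal) against that between TH237 and the mean of T183 and T195 (vertical), both of log2(signal + 16), for the 2170 probe sets called between T20 and Chris, coloured by whether the alloplasmic comparison called them the same way (1646), not at all (514) or the other way (10). Most points lie along the dotted line of equal differences; DIR1 and the B-box protein are among the 10.

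Probe sets were also counted where the lines lay on opposite sides of the 55th percentile, which does not show that a gene is present or absent. Above the 55th percentile on all T20 arrays and below it on all Chris arrays lay 390 probe sets, of which 271 were called. In the opposite pattern lay 530, of which 376 were called. Of the 390, 268 were also above on all TH237 arrays, 239 were below on all T183 and T195 arrays, and 188 (48.2%) were both. Of the 530, 357 were above on all T183 and T195 arrays, 356 below on all TH237 arrays and 255 (48.1%) both. For such probe sets a lower bound of the fold was taken, with the signals of the dim line raised to the 55th percentile of their array before the mean log2 signals were compared. The median bound was only 1.85-fold for the 390 and 1.82-fold for the 530, and 79 and 100 of them reached 4-fold. By this bound CCL S1_s_at was at least 19.4-fold higher in T20, the ribonuclease at least 12.5-fold, the hydrophobic low temperature protein at least 4.66-fold, BLT14.1 at least 4.21-fold, the DNAJ A1_x_at probe set at least 3.59-fold, the germin-like protein at least 3.05-fold, LTI30 at least 2.63-fold and HSP101 at least 2.26-fold. CYP76C2 was at least 17.4-fold lower in T20, KIWI at least 14.5-fold, the molybdenum cofactor sulfurase at least 5.28-fold and the aspartyl protease at least 3.36-fold. Of these genes only CCL, the ribonuclease, the DNAJ protein and the aspartyl protease kept the pattern on all alloplasmic arrays. KIWI (179, 132 and 201) and the sulfurase (271, 289 and 255) lay above the percentile on all TH237 arrays, which are of the T20 background. The largest bounds were at least 72.8-fold for the first pattern and at least 309-fold for the second, both at unnamed probe sets. The bounds move with the percentile taken as the floor: the largest were 37.8 and 165.2 at the 65th percentile and 127.7 and 517 at the 45th.

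Several probe sets of the array can belong to one transcript cluster, which in wheat may hold gene copies of different genomes. The probe sets tested fell into 20401 clusters, 4805 of them with 2 or more, and 250 clusters held at least 2 called probe sets. In 11 of the 250 (4.4%) called probe sets went in opposite directions. The cluster of peroxidase 55 was one, chosen here after its values were seen: the A1_at and A1_x_at probe sets rose by 2.36 and 1.89, while an S1_at and an S1_x_at probe set, which carry no name of their own, fell, with differences of -5.48 and -4.37. A second S1_at and S1_x_at probe set of the cluster differed by 0.30 and 0.12 and were not called. In 8 of the 11 clusters opposite calls were also made between TH237 and the lines of Chris background. Differences between gene copies and between probes of unlike match cannot be told apart here, since no probe sequences were used.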

How the data were processed

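The authors deposited 1 linear intensity per probe set and array of the Affymetrix Wheat Genome Array, a MAS 5.0 signal per the labels, scaled to a common trimmed mean near 500 on each array. RMA, which the methods name for the comparisons of the study, was not used here. MAS 5.0 scaling leaves differences in signal distribution between arrays, and the log2 of a dim signal is noisy. Before log2 was taken, 16 was added to the deposited intensities. Control probe sets were left out, and probe sets above the 55th percentile of the array on at least 3 of the 6 T20 and Chris arrays were kept.

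A linear model of the 5 lines was fitted to the 15 arrays with limma 3.58.1 in R 4.3.3 (10 residual and 3.49 prior degrees of freedom), so that all lines share 1 estimate of the spread, and p-values were adjusted over the 28342 probe sets by the Benjamini-Hochberg method. The difference between the euplasmic and alloplasmic comparisons was a contrast of the same model. Alternatives covered the test, the arrays fitted, the filter, the scaling, the value added, the fold limit, a replicate block and the removal of each array. The code was tested on simulated data. Where the methods' t-test is named, each probe set was put to a Welch test on the same values.

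Gene names and lists came from the tables of the study, and symbols from the platform annotation, which covered 1273 probe sets, 1272 of them matched to RefSeq. Where a gene has several probe sets, the ending of the identifier is given. Named were the 10 largest called rises and falls without overlap between arrays among genes with a name, up to 4 called members of each list by size, and the probe sets tabulated by the study. Members and lists were chosen with earlier results of these data known. Same-numbered arrays of T20 and Chris did not deviate together (r -0.112, -0.16 and 0.00345), so no block entered the model.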

Additional observations from a re-analysis of the deposited data

Results flagged for a closer look

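The background difference, that of T20 minus Chris less that of TH237 minus the mean of T183 and T195, was tested in limma, and 806 probe sets passed the thresholds, among them 38 of the 84 named probe sets that differed between T20 and Chris, 9 with a positive and 29 with a negative difference. Of the 38, 23 were still called without TH237 replicate 2, 24 without T20 replicate 1 and 25 without T20 replicate 2 or TH237 replicate 1. Lines of 3 arrays were not tested for single outlying arrays. TH237 carries another cytoplasm than T183 and T195, so that nucleus and cytoplasm cannot be told apart in the alloplasmic comparison.

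LHCII, APX4 and CCL differed less between T20 and Chris than between the alloplasmic lines. LHCII gave -5.39, -4.67, -4.50, -3.60, -3.57, -3.17 and -2.73 on 7 called probe sets, APX4 -3.94 on its S1_x_at probe set and CCL -2.74 and -2.54. FLU, which fell between T20 and Chris and was not called between the alloplasmic lines, gave -1.67, and the early light-inducible protein annotated from rice, which was lower in T20 and lower still in TH237, gave 1.76. Chris replicate 3 was raised in LHCII and APX4. Without it 30 of the 38 named differences were still called, and the LHCII S1_at probe set at -5.39 differed by 5.19 in place of 3.43 between T20 and Chris.

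The PWI splicing factor gave -6.28, being bright in Chris and dim in all other lines, and the PWI probe set that rose gave -2.28. DIR1, lower in T20 than in Chris but higher in TH237 than in T183 and T195, gave -4.74. The powdery mildew resistance protein gave -2.87, the probe set annotated with salicylic acid synthesis -1.91 and FMO1 -2.27. KIWI gave -2.50 and the molybdenum cofactor sulfurase -2.59, both having fallen more between T20 and Chris than between the alloplasmic lines. The metacaspase gave 2.26, VEP1 2.18 and MSS1 2.14.

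In metabolism and transport, the acyl-CoA reductase A1_s_at gave 3.04, BCAT-5 2.80, SUS4 -2.14, the proton-dependent oligopeptide transporter -2.76, CLC-A -1.67, PHO1 -1.48 and the UDP-glucosyl transferase -1.58. The B-box protein gave 2.98, peroxidase 55 gave 1.80 on its A1_at probe set, protoheme IX farnesyltransferase 1.80, and an unnamed probe set of the mitochondrial electron transport list -1.83. The dormancy/auxin associated protein gave -3.10, the DNAJ A1_x_at probe set -3.11, DNAJ J11 -1.37 and the low temperature induced protein -2.28.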

How the results depend on the processing

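In place of the 2170 probe sets called between T20 and Chris, 1305 were called with the filter at the 75th percentile, 4511 with no fold limit and 714 with a 4-fold limit. The methods' t-test called 348 after adjustment over all probe sets kept, 141 higher and 207 lower, and 1816 when adjusted over those past 2-fold only. The 1646 probe sets called the same way in the alloplasmic comparison were 1025, 3628 and 576 under the first 3 of these settings. Clusters with opposite calls, 11 in the reported model, were 2 by the t-test, 6 at the 75th percentile, 32 with no fold limit and 2 with a 4-fold limit. Other filters, scalings and values added before the log2 gave 1831 to 2311 calls between T20 and Chris. Leaving out 1 array at a time gave 1859 to 2353 calls for T20 against Chris, 4118 to 4650 for TH237 against T183 and T195, 1401 to 1765 called the same way in both and 8 to 12 such clusters.

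The same removal was applied to the background difference after the data had been seen, and gave 413 to 821 probe sets in place of 806, with 413 without T20 replicate 1, 446 without TH237 replicate 2 and 479 without Chris replicate 3. With the replicate block the counts were 2152 for T20 against Chris (2122 of them shared with the 2170), 4369 for TH237 against T183 and T195, 734 for the difference, 1640 for both and 10 clusters. The labels give only numbers, and since same-numbered arrays did not deviate together the block was not used.

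None of the 84 named probe sets changed sign under the settings tried, of which the filter at the 75th percentile kept 66 of them. The methods' t-test over all probe sets left 9 of them called, and removal of Chris replicate 1 took 18 calls, of T20 replicate 2 or 3 15 each, of Chris replicate 2 13, of T20 replicate 1 5 and of Chris replicate 3 4. Probe sets near the 55th percentile have little signal over background, and their differences depend on the 16 added.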

Other observations

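Of the 1273 probe sets with a symbol in the platform annotation, 818 were tested and 63 of them differed between T20 and Chris, 27 higher and 36 lower, beside 7.66% of all probe sets. By the ending of the identifier, 7.9% of the at probe sets, 8.39% of the x_at, 6.64% of the s_at and 5.52% of the a_at probe sets were called. After the largest unnamed changes, the next rise was 7.65 at a probe set with 6422, 4374 and 6104 in T20, against 5.51, 25.5 and 7.73 in Chris, and the next fall was -7.87, at a probe set with 8.85, 9.58 and 11.6 in T20, against 5411, 6294 and 6502 in Chris. Between the alloplasmic lines these probe sets differed by 5.39 and by -6.11. No name was given to either in the tables used here.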
